A study of Homo sapiens with 6 samples.

Results

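The genes described here encode the proteasome and the proteins that assemble it, activate it or bind to it. They were taken by name: all genes in the 6 expression files whose symbol is PSM, a letter from A to G and a number. That gave 48 of the 16574 genes in the files, of which 5 (PSMB8, PSMB9, PSMB10, PSME1 and PSME2) belong to the immunoproteasome and 43 do not. The rule uses no measured value, although it was set with earlier results of these data known, and all 48 passed the filter on low values. PSMC3IP and PSME3IP1 share the name but are no subunits: they encode proteins that bind to one. Another 53 names of this form in the reference list of gene names, mostly pseudogenes and antisense transcripts and also PSMA8 and PSMB11, were not analysed here.

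RNA was sequenced from Nthy-ori 3-1, a line of human thyroid follicular epithelial cells immortalised with SV40 large T antigen and labelled as wild type. In the BDE209 group, 3 libraries came from cells kept for 27 days in 2.5 µM decabromodiphenyl ether, a fully brominated flame retardant. In the control group, 3 libraries came from cells given an equal volume of the solvent dimethyl sulfoxide (DMSO) for the same 27 days. All libraries come from this single line. Whether the replicates were grown as separate cultures is not in the labels. A p-value here therefore reflects the spread among 6 libraries, and that spread may be technical.

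The proteasome is the cell's main protease for proteins tagged with ubiquitin. Its barrel, the 20S core, is a stack of rings of alpha subunits (PSMA genes) around rings of beta subunits (PSMB genes), and PSMB5, PSMB6 and PSMB7 carry the active sites. The 19S cap has ATPases (PSMC genes), which unfold the substrate, and other subunits (PSMD genes), which bind and remove ubiquitin. Interferon induces alternative catalytic subunits, PSMB8, PSMB9 and PSMB10, which take the places of PSMB5, PSMB6 and PSMB7 in newly built cores and change the peptides cut for MHC class I. It also induces PSME1 and PSME2, which form the PA28 ring that docks on the core in place of the cap.

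Start sites were read for the interferon-stimulated response element (ISRE), to which interferon regulatory factors and STAT complexes bind. RefSeq windows (GRCh38.p14) from 250 bases before to 50 bases after a gene start were found for 42 of the 48 genes, all 5 immunoproteasome genes among them. The core, GAAA followed by 2 bases of any kind and GAAA again, was searched on both strands. They stood in a window of 4 of the 5 immunoproteasome genes, of 3 of the 37 other members with a window (PSMA4, PSMB4 and PSMG4), and of 4.38% of all 27305 genes in the table (3.57% of its windows). None of these matches overlapped a match of another motif searched. The matches are shown with the bases around them, 5′ to 3′ on the strand of the gene, with the match in capitals; TTTC at both ends is the same core on the other strand.
PSMB8 (chr6:32844032-32844061, minus strand): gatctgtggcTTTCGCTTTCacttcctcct
PSMB10 (chr16:67936852-67936881, minus strand): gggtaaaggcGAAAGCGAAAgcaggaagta
PSME1 (chr14:24136189-24136218, plus strand): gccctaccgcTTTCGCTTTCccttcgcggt
PSME2 (chr14:24146619-24146648, minus strand): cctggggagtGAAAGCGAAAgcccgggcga
PSMG4 (chr6:3258904-3258933, plus strand): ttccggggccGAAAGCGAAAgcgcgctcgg
PSMB4 (chr1:151399495-151399524, plus strand): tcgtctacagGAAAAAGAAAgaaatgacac
PSMA4 (chr15:78540155-78540184, plus strand): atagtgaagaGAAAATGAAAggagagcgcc
PSMB8, PSMB10, PSME1 and PSME2 held the identical letters GAAAGCGAAA on one strand or the other, each within 28 bases of the start, and so did the assembly chaperone gene PSMG4, at bases -33 to -24 when the first transcribed base is 0. A match of letters is a description of the window, not evidence of a bound factor.

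PSMB9, the member whose level differed most, had no such match in its own window. Its start lies 488 bases from that of TAP1, a peptide transporter gene on the opposite strand, and a match of 2 overlapping cores lies between them, 354 bases before the PSMB9 start. It is shown first, on the TAP1 strand, and then the 250 bases before the PSMB9 start on the PSMB9 strand. In the latter, the capitals mark a CCAAT box and a match to the antioxidant response element core TGACNNNGC on the other strand.
TAP1 (chr6:32853816-32853845, minus strand): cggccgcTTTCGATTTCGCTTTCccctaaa
PSMB9 (chr6:32853942-32854191, plus strand): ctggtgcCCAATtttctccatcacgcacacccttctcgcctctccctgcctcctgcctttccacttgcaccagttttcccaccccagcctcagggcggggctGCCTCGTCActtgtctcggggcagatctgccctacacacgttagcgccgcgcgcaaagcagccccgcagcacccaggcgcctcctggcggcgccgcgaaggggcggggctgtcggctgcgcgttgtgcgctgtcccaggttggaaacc
The other motifs were counted in the same windows. The antioxidant response element core, the site of the proteasome regulators NFE2L1 and NFE2L2, was in windows of 3 of 5 immunoproteasome genes and 12 of 37 others, against 16.1% of all genes. CCAAT boxes were in windows of 1 of 5 and 20 of 37, against 39.7%. The STAT core TTCNNNGAA was in those of 1 of 5 and 6 of 37, against 9.38%, and the kB site (GGG, 3 bases of any kind and TTCC) in those of 0 of 5 and 4 of 37, against 7.83%. The TAP1 window with the ISRE match also held a kB site (chr6:32853767-32853776), which lies between the TAP1 and PSMB9 starts.

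The summed FPKM (fragments per kilobase of transcript, scaled to library size) was 567810 to 596725 in the replicate 1 and 3 libraries and 819086 and 829739 in those of replicate 2, which stood apart in both groups. Libraries with the same number deviated together from their group means (correlations across genes of 0.738, 0.875 and 0.824), and the best match of each had its own number. The shift of replicate 2 also raises the correlations for numbers 1 and 3, so their size alone says little about that pairing. Differences are given within each number as well. Each difference is BDE209 minus DMSO in log2(FPKM + 1). Unless the replicate block is named, SE and intervals leave the pairing out and so include the shift of replicate 2. Over all 6 libraries limma called 0 of the 48 members and 0 of the 11223 genes tested (0%) at an adjusted p under 0.05. At an unadjusted p under 0.05 the counts were 0 members and 176 genes (1.57%), or 186 genes without limma's trend and robust options, and the adjusted p of each member was 1.00.

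The immunoproteasome genes were higher with BDE209 in every pair of libraries with the same number. All 5 were higher in all 3 pairs, as were 2 of the 43 other members and 21.9% of all genes tested. Their median difference was 0.55, 0.17 and 0.70 in replicates 1, 2 and 3, against 0.01, 0.02 and -0.00093 over all genes tested. In the other members the medians were -0.06, 0.03 and -0.10. With the replicate number as a block, limma still called no member (0% of all genes), and the 5 immunoproteasome genes had adjusted p between 0.204 (PSMB9) and 0.284 (PSME2). At an unadjusted p under 0.05 in that fit, the 5 were the only members higher (9.73% of all genes), and PSMD2, PSMD3, PSMD9, PSMB3 and PSMC3IP were lower (6.73% of all genes).

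PSMB9, which replaces PSMB6, read 11.36, 4.82 and 8.23 FPKM for DMSO replicates 1, 2 and 3 against 24.00, 6.75 and 20.52 for BDE209. Its levels were 2.11, 1.40 and 2.49 times as high with BDE209 in replicates 1, 2 and 3. The replicate 2 libraries were the lowest of each group, and BDE209 replicate 2 lay below DMSO replicates 1 and 3, so the groups overlapped. The means were 8.14 ± 3.27 and 17.1 ± 9.12 FPKM (SD, n = 3), a log2 difference of 0.88 (SE 0.50, limma 95% interval -0.33 to 2.09). With the replicate block the SE was 0.16 and the interval 0.49 to 1.28 (limma adjusted p = 0.204). Intervals here are not adjusted for the number of genes.

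PSMB8, which replaces PSMB5, read 26.86, 22.80 and 24.53 FPKM for DMSO against 40.07, 23.62 and 40.54 for BDE209. The ratios were 1.49, 1.04 and 1.65, so nearly all of the difference lay in replicates 1 and 3. PSMB10, which replaces PSMB7, read 19.48, 15.75 and 15.62 FPKM for DMSO against 28.91, 17.78 and 31.32 for BDE209, with ratios of 1.48, 1.13 and 2.01. An antisense gene, PSMB8-AS1, overlaps PSMB8, and without a stated strand setting its reads cannot be told apart from those of PSMB8. For both genes the replicate 2 library with BDE209 lay within the range of the DMSO libraries. The log2 differences were 0.44 (SE 0.23, interval -0.11 to 0.99) for PSMB8 and 0.56 (SE 0.23, interval -0.0030 to 1.12) for PSMB10. With the replicate block the SE was 0.13 for PSMB8 (interval 0.11 to 0.76) and 0.15 for PSMB10 (interval 0.18 to 0.93).

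Without replicate 2, the 3 catalytic genes were called. In replicates 1 and 3 alone, with 2 libraries a group, PSMB9 differed by 1.12 (SE 0.15; limma adjusted p = 0.00703), PSMB8 by 0.63 (SE 0.08; adjusted p = 0.00575) and PSMB10 by 0.75 (SE 0.11; adjusted p = 0.0111). They were the only members called there, 3 of 48 as higher and 0 as lower, where 4.4% of all genes were called as higher and 2.28% as lower. With the replicate number also as a block, which leaves 1 residual degree of freedom, the calls were 5 higher (all immunoproteasome genes; 14.4% of all genes) and 11 lower (14.3% of all genes). That subset of libraries was chosen with earlier results known. A two-sided limma test asked whether the effect differed, in either direction, in replicate 2, where each group is 1 library. The effects in replicate 2 minus those in replicates 1 and 3 were -0.71, -0.58 and -0.59 for PSMB9, PSMB8 and PSMB10. Their adjusted p were 0.363, 0.163 and 0.317, so none was called, and neither was another member, where 0.615% of all genes were. With 1 library a group in replicate 2 this does not show that the effects were alike. At an unadjusted p under 0.05 that test had 3 members, PSMB8, PSMB10 and PSMB9, and 1246 genes (11.1%).

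The PA28 genes differed less than the catalytic genes in replicates 1 and 3. In replicate 2 the log2 differences were 0.17 for PSME1 and 0.14 for PSME2, against 0.05 for PSMB8, 0.17 for PSMB10 and 0.41 for PSMB9. PSME1, the alpha subunit, read 148.03, 155.47 and 157.21 FPKM for DMSO against 187.10, 174.54 and 181.90 for BDE209. All BDE209 libraries lay above all DMSO libraries, which held for 1 of the 48 members and for 3.22% of all genes tested. Its means were 154 ± 4.88 and 181 ± 6.31 FPKM (SD, n = 3), a log2 difference of 0.24 (SE 0.14, interval -0.10 to 0.58). With the replicate block the SE of PSME1 was 0.06 (interval 0.10 to 0.38). PSME2, the beta subunit, read 261.51, 488.44 and 244.57 FPKM for DMSO against 316.61, 538.62 and 255.96 for BDE209. Its ratios of 1.21, 1.10 and 1.05 were all above 1, while its replicate 2 libraries were far above the others in both groups. Its log2 difference was 0.16 (SE 0.39), with an SE of 0.06 and an interval of 0.01 to 0.31 under the replicate block. Without BDE209 replicate 2 alone the sign turned (-0.15), but that fit keeps the high DMSO replicate 2 library without its partner. PSME2 was positive in 16 of the 18 fits run, so its sign also turned in another fit. Without replicate 2 of both groups the difference was 0.17. The related pseudogenes PSME2P1 to PSME2P6 may share reads with PSME2, so its level is uncertain.

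**Figure D1:**
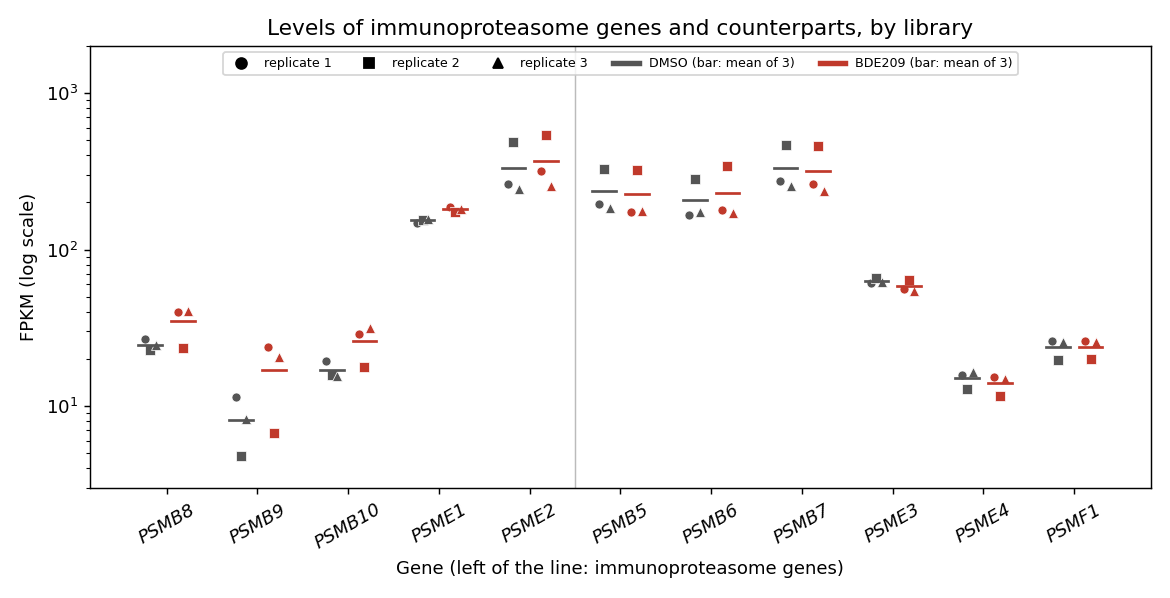
FPKM on a log axis of the 5 immunoproteasome genes (left of the line) and of their counterparts and the other activators and inhibitor (right), with circles, squares and triangles for replicates 1, 2 and 3, grey for DMSO, red for BDE209, and bars for the mean of 3 libraries. The red circles and triangles of PSMB8, PSMB9 and PSMB10 stand above all grey points, while the red squares (replicate 2) do not, and PSMB5, PSMB6 and PSMB7 stand above PSMB8, PSMB9 and PSMB10 in every library, at similar levels in both groups.

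Set against the constitutive subunit that each replaces, the immune catalytic genes had a larger share with BDE209 in all 3 pairs. A ratio within a library does not depend on its total. PSMB8 made up 12.0%, 6.50% and 11.7% of the summed FPKM of PSMB8 and PSMB5 for DMSO, against 18.6%, 6.79% and 18.6% for BDE209. PSMB9 made up 6.37%, 1.68% and 4.54% of PSMB9 and PSMB6 for DMSO, against 11.8%, 1.94% and 10.7% for BDE209. PSMB10 made up 6.64%, 3.27% and 5.77% of PSMB10 and PSMB7 for DMSO, against 9.92%, 3.75% and 11.7% for BDE209. The constitutive transcript thus remained the larger in every library, and replicate 2 had the lowest immune share of each group. In log2 units the ratios were higher by 0.74, 0.07 and 0.78 for PSMB8, 0.97, 0.21 and 1.34 for PSMB9, and 0.63, 0.20 and 1.11 for PSMB10 in replicates 1, 2 and 3.

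PSME1 and PSME2 were set against PSME3, which forms a PA28 ring of its own in the nucleus. The log2 ratio of PSME1 to PSME3 was 1.27, 1.25 and 1.34 for DMSO against 1.74, 1.44 and 1.75 for BDE209, with no overlap between the groups. That of PSME2 to PSME3 was 2.10, 2.90 and 1.98 for DMSO against 2.50, 3.07 and 2.24 for BDE209, with overlap. By a two-sided exact permutation test over the 6 libraries, which cannot go below p = 0.1, the 5 ratios had p of 0.1 for PSME1, 0.4 for PSMB10 and 0.5 for PSMB8, PSMB9 and PSME2; adjusted over the 5 ratios, each was 0.5. That test leaves the pairing by number out.

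**Figure D2:**
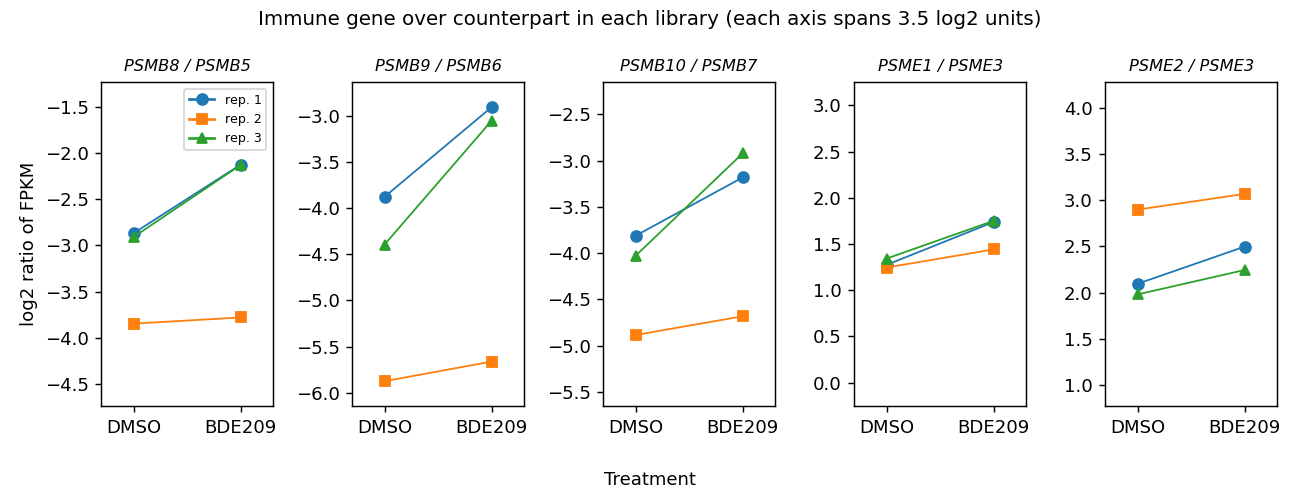
log2 ratio of FPKM of each immunoproteasome gene to its counterpart, in DMSO and BDE209, with a line joining the libraries of replicate 1 (blue circles), 2 (orange squares) and 3 (green triangles); each panel spans 3.5 log2 units. All 15 lines rise, and in the 3 catalytic panels the replicate 2 line is the flattest and lies lowest.

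The 43 members outside the immunoproteasome had log2 differences from -0.29 to 0.12, and the constitutive core differed little between the groups. Its 14 genes had median differences of -0.04, 0.06 and -0.10 in replicates 1, 2 and 3, and 0 of them had groups that lay apart. Their levels were unequal, although each subunit has the same number of places in the core: PSMA5 was the lowest, at 23.32 to 41.12 FPKM in DMSO, and PSMA7 the highest in DMSO replicates 1 and 3, at 354.42 and 354.02. PSMB5, which cuts after hydrophobic residues, read 196.11, 327.96 and 184.30 FPKM for DMSO against 175.00, 324.26 and 177.46 for BDE209, slightly lower in all 3 pairs (ratios 0.892, 0.989 and 0.963). PSMB6, which cuts after acidic residues, read 167.11, 282.44 and 173.12 for DMSO against 180.20, 341.43 and 170.56 for BDE209, with ratios of 1.08, 1.21 and 0.985. PSMB7, which cuts after basic residues, read 273.79, 465.72 and 255.14 for DMSO against 262.41, 456.97 and 237.27 for BDE209, with ratios of 0.958, 0.981 and 0.930. The log2 differences of the 3 were -0.08, 0.12 and -0.06, with SE of 0.34, 0.35 and 0.35. With the replicate block the SE were 0.06, 0.07 and 0.05, and none was called (limma adjusted p = 0.509, 0.421 and 0.552).

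The extremes of each ring were also small. Among the alpha genes PSMA6 differed most upward, at 241.78, 425.65 and 186.13 FPKM for DMSO against 253.49, 443.43 and 198.60 for BDE209, higher in all 3 pairs. PSMA7 differed most downward, at 354.42, 440.00 and 354.02 for DMSO against 313.96, 442.15 and 336.95 for BDE209. Among the beta genes PSMB3, a subunit with no active site, differed most downward, at 240.99, 469.38 and 254.92 for DMSO against 218.97, 436.22 and 212.51 for BDE209. PSMB3 was lower in all 3 pairs, with 18 of the 43 members outside the immunoproteasome and 17.3% of all genes tested. The log2 differences were 0.07 (SE 0.42), -0.08 (SE 0.22) and -0.17 (SE 0.39).

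In the 19S cap most members read somewhat lower with BDE209 in replicates 1 and 3. Of its 6 ATPase genes 6 were lower in replicate 1, 3 in replicate 2 and 6 in replicate 3. Of its 11 other genes 10, 7 and 9 were lower. Over all genes tested the counts were 5252, 4978 and 5620 of 11223. Short genes had the same pattern: in the shortest of 4 equal classes of transcript length, up to 2154 bases, 1695, 1190 and 1704 of 2803 were lower, with medians of -0.05, 0.03 and -0.05. The part of length in the cap's difference was not tested. PSMD2, the base subunit on which ubiquitin shuttles dock, read 279.33, 333.10 and 279.19 FPKM for DMSO against 236.82, 298.33 and 227.63 for BDE209, ratios of 0.848, 0.896 and 0.815. PSMD3, of the lid, read 98.15, 96.77 and 98.14 for DMSO against 81.54, 90.80 and 85.47 for BDE209. PSMD3 was the 1 member whose BDE209 libraries all lay under its DMSO libraries, which held for 2% of all genes tested; it was singled out after its values were seen. The log2 differences were -0.23 (SE 0.19, interval -0.69 to 0.23) for PSMD2 and -0.18 (SE 0.13, interval -0.49 to 0.12) for PSMD3. With the replicate block the SE was 0.05 for PSMD2 (interval -0.36 to -0.10) and 0.06 for PSMD3 (interval -0.32 to -0.04).

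The other cap genes that stood at the ends of their class were close to no difference. The ATPase gene PSMC4 read 109.04, 137.07 and 112.36 FPKM for DMSO against 102.60, 126.81 and 101.45 for BDE209 (log2 difference -0.11, SE 0.17). Another ATPase gene, PSMC2, read 53.68, 76.62 and 45.58 for DMSO against 52.07, 85.99 and 44.33 for BDE209 (0.03, SE 0.30). The lid gene PSMD7, partner of the deubiquitinase PSMD14, read 119.93, 137.38 and 111.71 for DMSO against 115.16, 155.57 and 112.78 for BDE209 (0.04, SE 0.19). PSMC2 and PSMD7 each went one way in replicate 2 and the other in replicate 1.

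Assembly chaperones and the remaining activators differed by less than the spread between unpaired replicates. Within pairs PSMD9, a chaperone of cap assembly, was evenly lower, at 19.79, 31.13 and 17.10 FPKM for DMSO against 17.65, 27.72 and 15.17 for BDE209 (ratios 0.892, 0.890 and 0.887; log2 difference -0.16, SE 0.05 with the replicate block, limma adjusted p = 0.251). PSMD9 was singled out after its values were seen. PSMG2, which with PSMG1 guides alpha ring assembly, read 68.79, 76.79 and 62.46 FPKM for DMSO against 73.90, 87.85 and 63.47 for BDE209, higher in all 3 pairs (log2 difference 0.11, SE 0.17). PSMG4, of the partner complex with PSMG3, read 21.54, 35.12 and 30.95 for DMSO against 23.62, 33.53 and 18.51 for BDE209 (-0.22, SE 0.27). Its difference rested on BDE209 replicate 3, without which it was -0.02. PSMG4 also had the ISRE core of the immunoproteasome genes near its start. Its ratios of 1.10, 0.955 and 0.598 had no common direction, and any part of the core in them was not tested. The lowest value of all 43 belonged to PSMC3IP, which acts in meiotic recombination and is named here after its values were seen. It read 18.82, 28.62 and 17.26 for DMSO against 14.51, 27.66 and 12.18 for BDE209 (-0.29, SE 0.34).

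PSME3 read 61.20, 65.56 and 61.98 FPKM for DMSO against 56.07, 64.25 and 54.02 for BDE209. It was lower in all 3 pairs, with a log2 difference of -0.12 (SE 0.13), while the other PA28 genes were higher. PSME4, the large activator PA200, read 15.85, 12.90 and 16.62 for DMSO against 15.29, 11.55 and 15.00 for BDE209 (-0.11, SE 0.16), also lower in each pair. PSMF1, the inhibitor PI31, read 26.17, 19.60 and 25.65 for DMSO against 25.97, 20.02 and 25.82 for BDE209 (0.0092, SE 0.17; interval -0.40 to 0.42), with nearly equal levels in each pair.

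**Figure D3:**
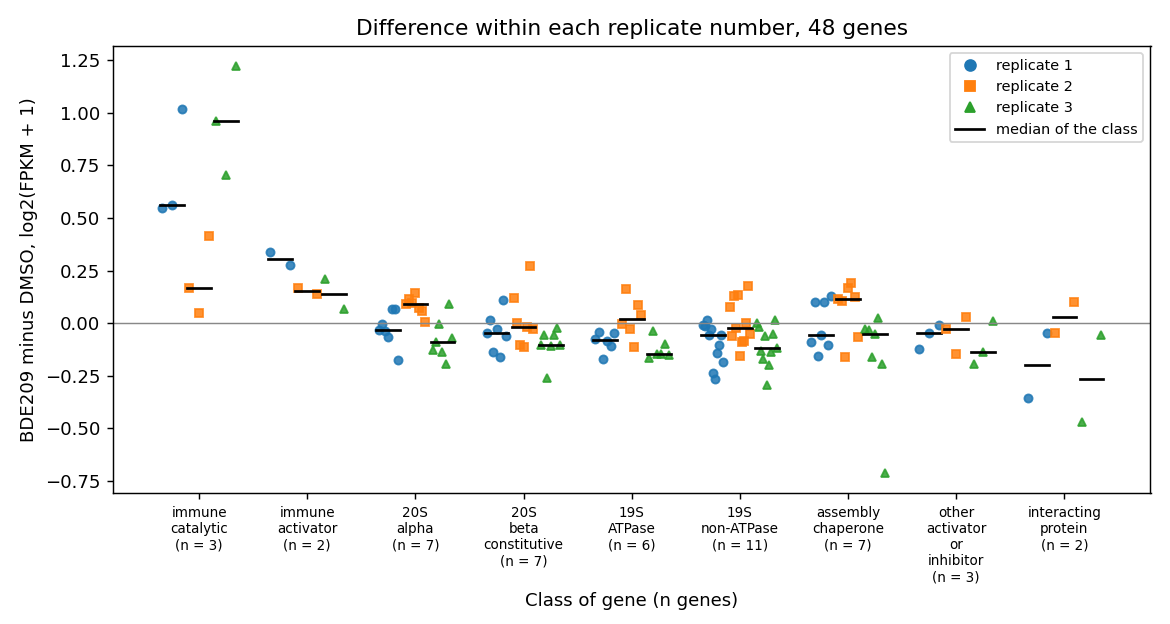
Differences (BDE209 minus DMSO, log2(FPKM + 1)) of all 48 genes by class, with 1 point per gene and replicate number (blue circles 1, orange squares 2, green triangles 3) and black bars at the median of each class and number. The immune classes are above 0 in each of the 3 replicates, and the core and cap classes lie around or just under 0, with replicate 2 a little above replicates 1 and 3.

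Replicate 2 differed from replicates 1 and 3 within each treatment, and the core genes and PSMB9 went different ways. In DMSO alone the 14 constitutive core genes were all higher in replicate 2, by a median of 0.82 log2 units (0.29 to 1.19), and PSME2 went with them (0.95). PSMB9 was lower there (-0.88), while PSMB8 (-0.16), PSMB10 (-0.14) and PSME1 (0.03) were near the level of replicates 1 and 3. In BDE209 the core was again higher, by a median of 0.97, PSME2 read 0.92, and PSMB9, PSMB8 and PSMB10 read -1.58, -0.75 and -0.73. For PSMB8 and PSMB10 the low replicate 2 value was thus mainly that of the BDE209 library, and it is the same difference as the smaller BDE209 effect in replicate 2. Transcript length moved with this shift: the shortest length class had a median of 0.33 in DMSO and the longest -0.38. The 3 immune catalytic genes have longest transcripts of 792, 1218 and 1351 bases in GENCODE v29, which puts them among the short genes. Their shifts were negative in both treatments, and the part of length in these shifts was not tested. The part of length or RNA quality in the treatment differences was not tested.

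**Figure D4:**
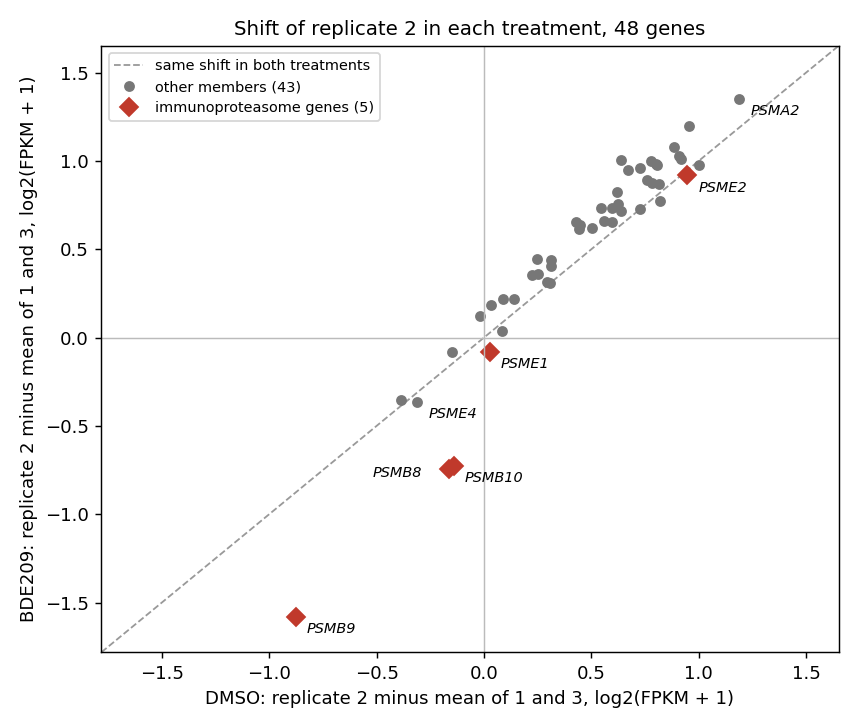
Shift of replicate 2 against the mean of replicates 1 and 3 in log2(FPKM + 1), in DMSO (x axis) and in BDE209 (y axis), with red diamonds for the 5 immunoproteasome genes, grey circles for the 43 others and a dashed line where both shifts are equal. The grey circles follow the line, mostly to the right of 0, with PSME2 and PSME1 near it, and PSMB8, PSMB9 and PSMB10 lie below it.

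Genes of the surrounding pathway were taken from lists of general knowledge, chosen with earlier results known; limma called 0 members of each over all 6 libraries. Over all genes tested, 21.9% were higher and 17.3% lower in all 3 pairs. In replicates 1 and 3 alone, where the catalytic genes were called, 7 of the peptide loading genes and 2 of the interferon regulators were called higher too (4.4% of all genes). So were 1 of 8 regulators of proteasome genes and 1 of 15 genes of ubiquitin supply and shuttling, and 0 of 12 assembly and associated factors. Of 11 tested regulators through which interferon acts on the immunoproteasome, 9 were higher and 0 lower in all 3 pairs (median difference 0.19, against 0.01 over all genes tested). IRF1, the factor that drives immunoproteasome genes after interferon gamma, read 8.65, 3.89 and 7.83 FPKM for DMSO against 16.63, 5.84 and 16.49 for BDE209. Its low value in replicate 2 of both groups resembled that of PSMB9, and its log2 difference was 0.78 (SE 0.45). IFNGR1, a receptor chain for interferon gamma, read 23.09, 26.59 and 21.85 for DMSO against 36.62, 30.34 and 33.99 for BDE209. Its groups did not overlap (log2 difference 0.48, SE 0.14; limma adjusted p = 1.00). With IRF9 and IFNGR2 it was 1 of 3 of the 11 regulators whose BDE209 libraries all lay above the DMSO libraries (3.22% of all genes tested).

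Of 13 tested peptide loading genes, which carry proteasome products to MHC class I, 7 were higher and 0 lower in all 3 pairs. Their median differences were 0.41, 0.05 and 0.42 in replicates 1, 2 and 3. TAP1, which shares its start region with PSMB9 and is named for that, read 9.04, 4.03 and 10.43 FPKM for DMSO against 14.74, 5.0 and 16.76 for BDE209. It had the low replicate 2 values of PSMB9, and a log2 difference of 0.51 (SE 0.50). In GENCODE v29 the gene model of PSMB9 spans TAP1 on the opposite strand, so reads of this pair could be shared. HLA-B and HLA-C, class I heavy chains, differed by 1.03 (SE 0.42) and 0.58 (SE 0.28), although reads of such similar genes could be shared between them. In replicates 1 and 3 alone HLA-B differed by 1.45 (limma adjusted p = 0.00045) and IRF1 by 0.93 (adjusted p = 0.00154). The BDE209 difference of HLA-B was smaller in replicate 2 by 1.25 (limma adjusted p = 0.0289), a call that no proteasome gene had.

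The lists that serve the constitutive proteasome were counted in the same way. Of 12 assembly and associated factors 1 was higher and 0 lower in all 3 pairs, of 8 regulators of proteasome genes 2 and 2, and of 15 genes of ubiquitin supply and shuttling 2 and 5. ZFAND5, which stimulates the 26S proteasome, differed by 0.20 (SE 0.16) and AKIRIN2, which brings proteasomes into the nucleus, by 0.07 (SE 0.13). FOXO4 and MAFK, of the regulators, differed by 0.20 (SE 0.22) and -0.09 (SE 0.12). NFE2L1, named here after its values were seen, read 96.39, 63.24 and 95.95 FPKM for DMSO against 117.00, 64.01 and 121.77 for BDE209. It was higher in all 3 pairs (log2 difference 0.21, SE 0.31), and by 0.31 in replicates 1 and 3 alone (limma adjusted p = 0.0451). The ubiquitin receptor gene SQSTM1 read 178.26, 152.11 and 181.68 FPKM for DMSO against 281.25, 167.83 and 284.75 for BDE209, with the same division between replicate 2 and the others as PSMB8 (log2 difference 0.48, SE 0.25). In replicates 1 and 3 alone SQSTM1 differed by 0.65 (limma adjusted p = 0.00317). NPLOC4, a cofactor of the unfoldase VCP, differed by -0.12 (SE 0.15).

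White blood cells carry much immunoproteasome, so their markers were read beside these results. Of 10 such markers 6 were in the files and none reached the filter. Their summed level was 0.68 to 1.13 FPKM for DMSO against 0.72 to 1.11 for BDE209, and the pan-leukocyte gene PTPRC was at 0.00 to 0.02 in all libraries. Follicular markers were low as well: thyroglobulin (TG) and the TSH receptor (TSHR) were at 0.12 FPKM or less, and 1 of the 9 markers passed the filter (FOXE1, at 0.84 to 1.48). Of 6 epithelial markers, the keratins KRT7 (75.77 to 113.06 FPKM), KRT18 (36.19 to 55.92) and KRT8 (5.70 to 9.0) were present, EPCAM was at 1.06 to 1.21, KRT19 at 0.08 or less, and CDH1 listed at 0 in 5 of 6 libraries. The summed FPKM of 8 mesenchymal markers was 14370, 9724 and 13460 for DMSO against 12042, 8986 and 11670 for BDE209, lower in each pair. Vimentin (VIM) made up most of that sum, and the members went both ways: VIM, FN1 and PDGFRB were lower and LUM and DCN higher in all 3 pairs. Their part in the proteasome differences was not tested. In bulk RNA, fewer cells of a kind and less RNA per cell cannot be told apart.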

How the data were processed

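Each library has a table of 16614 rows that gives FPKM per human Ensembl identifier, per the file headers. The submitters' processing notes name RSEM, Bowtie2 and Bowtie 0.12.2, and as builds mm10 and mm8, both of mouse; the sources used here give no human build, no strand use and no rule for shared reads. The deposited FPKM carry no counts, so depth is unknown. Identifiers listed more than 1 time (20) were left out, and 16535 of the 16574 kept were named from the reference table.

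Limma 3.58.1 (R 4.3.3; trend and robust options, no block) was run on log2(FPKM + 1) for 11223 genes that reached 1 FPKM in 3 libraries or more, with Benjamini-Hochberg adjustment and a threshold of 0.05. This scale understates the change of low genes. Scripts were tested on simulated data. Replicate numbers pair the samples by the correlations of deviations (all above 0.1); what they share is not stated. Library values are given for the immunoproteasome genes, their counterparts, other activators, and the extremes of each class, and the difference, with library values for some, for the 2 genes of each pathway list with the smallest p. PSMD3, PSMD9, PSMC3IP and NFE2L1 were added after their values were seen. Members and lists were chosen with earlier results of these data known. Transcript length is that of the longest basic GENCODE v29 transcript (99.8% of genes tested). Promoter windows are from RefSeq, matched by symbol. Alternatives were other pseudocounts, filters, scalings, no trend, the replicate block and libraries left out; those for the replicate 2 test were added after the data were seen.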

Additional observations from a re-analysis of the deposited data

How the results depend on the processing

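Beside the settings used, limma was run with other pseudocounts (0.1, 5), no filter or an FPKM minimum of 5, TPM scale, median centring, quantile normalization, no trend or robust option, the replicate block, and with libraries left out. PSMB8, PSMB9, PSMB10 and PSME1 were higher with BDE209 in all 18 fits (0.31 to 0.69, 0.57 to 1.41, 0.41 to 0.80 and 0.21 to 0.28), and PSME2 in 16 of 18. With the replicate block the count of calls was still 0, and the block changed no call over all 6 libraries. Without replicate 2 of both groups 488 genes were called higher and 253 lower, 3 and 0 of them members, and with the replicate block as well 1599 and 1585, 5 and 11 of them members; the cause was not tested. In both of these fits PSMC2 turned to -0.04, PSMD7 to -0.02 and PSMF1 to -0.00074. PSMF1 was -0.01 when median centred and POMP, an assembly factor, 0.00024 when quantile normalized.

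Leaving out 1 library gave 0 to 1 genes called higher (1 without BDE209 replicate 2) and moved the median of the other proteasome genes from -0.29 (without BDE209 replicate 2) to 0.14 (without DMSO replicate 2). It turned the sign of PSME2 (-0.15 to 0.48), PSMA6 (-0.25 to 0.41), PSMA7 (-0.23 to 0.02), PSMB3 (-0.51 to 0.14), PSMB5 (-0.37 to 0.18), PSMB6 (-0.20 to 0.36), PSMB7 (-0.35 to 0.21), PSMC2 (-0.25 to 0.23), PSMD7 (-0.10 to 0.13), PSME4 (-0.22 to 0.0093), PSMF1 (-0.12 to 0.13), PSMG2 (-0.01 to 0.22) and POMP (-0.51 to 0.40). All these ends but the upper one of PSMG2 came from leaving out replicate 2 of 1 group. The shift of the unpaired replicate 2 library then enters the difference, so these turns do not measure how stable the differences within pairs were. Without replicate 2 of both groups PSME2 was 0.17 and PSMB3 -0.20, while PSMC2, PSMD7 and PSMF1 turned as given above. The test of a different effect in replicate 2 called 0 members under 8 further settings. FOXO4 has no value at an FPKM minimum of 5. The precision of low FPKM cannot be given without counts.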
